A study of Mus musculus with 2 samples.

Results

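The distal microRNA cluster of the imprinted Dlk1-Dio3 domain runs from Mir379 to Mir410 on the plus strand of mouse chromosome 12 (mm10, 109709060 to 109743795). Its members were taken by position alone: every GENCODE M21 miRNA gene on that strand from the start of the first hairpin to the end of the last. This gave 38 of the 2202 miRNA genes in the tables, within a span of 34736 bases. The rule uses no measured value, but the choice was made with earlier results of these data known. The nearest annotated plus-strand hairpins outside these bounds were Mir882 upstream, with 0 counts in both libraries, and Mir3072 downstream, with 108 and 241 counts.

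Small RNA was sequenced from adrenal glands of male B6CASTF1/J mice, 25 days old, in 2 libraries that form 1 group, with no treatment named. The strain crosses C57BL/6J mothers with CAST/EiJ fathers, under the naming convention for hybrids, and the counts are not split by allele. The labels number the animals differently but give them a single donor entry, so the spread between the libraries may be technical. They give the size range as under 30, read here as nucleotides. With no second condition, the data allow levels, their order along the cluster and the difference between the libraries.

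MicroRNAs are cut from hairpins in longer transcripts, and their seed, bases 2 to 8, pairs with target messenger RNAs. In the Dlk1-Dio3 domain the maternal chromosome expresses noncoding RNAs that carry the hairpins, while the paternal chromosome expresses protein-coding genes such as Dlk1. The distal hairpins are known from brain, where Mef2 raises them with neuronal activity, and from placenta and newborn liver, where loss of the cluster impairs the response to fasting at birth. In the adrenal gland both the steroid-making cortex and the neuron-related chromaffin cells of the medulla could express them, and whole glands cannot tell the layers apart. For the same reason fewer cells of a type and less RNA per cell cannot be told apart here.

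Levels are sense-strand counts per 1000000 assigned sense counts (CPM). The libraries held 3588361 (replicate 1) and 4541373 (replicate 2) such counts, and a count of 0 allowed up to 0.836 and 0.661 CPM. Intervals and these limits cover counting error only, since no molecular identifiers mark separate molecules. The libraries differed in hairpins known from other organs, and the source of these reads was not tested. Mir122, the main hepatocyte hairpin, stood at 892 CPM in the first library and 197553 CPM in the second, and the liver list of 4 hairpins held 0.0949% and 19.9% of the counts. The striated muscle list of 9 held 0.101% and 0.000132%, with 0 of 9 detected in both libraries, led by Mir206 at 987 and 0.661 CPM, with Mir133a-2 and Mir133b at 0 in both. The kidney list of 5 held 0.0126% and 0.141%, led by Mir194-2, which the liver list also holds, as it does Mir192. The other detected kidney hairpins were lower in replicate 2. Mir204 had 48.5 and 35.7 CPM, and Mir196a-1 had 20.1 and 14.3 CPM. The blood list of 5 held 0.344% and 0.208%, led by Mir451a, the smooth muscle pair 4.96% and 3.19%, led by Mir143, and endothelial Mir126a 6.28% and 6.08%. No hairpin defines adrenal cortex. Of the neuroendocrine and neuronal list of 11, with 5 detected, which held 4.01% and 3.38%, Mir375 led with 33380 and 29004 CPM. Mir9-1, Mir9-2 and the 3 Mir124a copies were at 0 in both libraries. Gene counts leave out reads that fit several hairpins equally well. For hairpins with copies, in this list or the striated muscle list, a count of 0 therefore does not show absence. The part of any of these lists in the results below was not tested, apart from totals without Mir122, which are given beside the results.

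Mature sequences of 37 members were found in RefSeq (GRCm38.p6), 69 in all, with none for Gm27379. The first set shows the most abundant members and, for its seed, Mir1193, which had a mean of only 71.0 CPM. Capitals mark the seeds, to show how alike they are. The counts do not separate the 5p from the 3p arm of a hairpin, so each level belongs to both products.
miR-379-5p: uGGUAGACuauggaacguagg
miR-1193-5p: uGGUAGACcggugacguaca
miR-411-5p: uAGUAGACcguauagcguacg
miR-379-3p: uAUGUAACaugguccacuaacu
miR-411-3p: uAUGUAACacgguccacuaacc
miR-541-5p: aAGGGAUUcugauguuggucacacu
miR-382-5p: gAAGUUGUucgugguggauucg
miR-487b-5p: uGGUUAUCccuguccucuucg
miR-379-5p and miR-1193-5p have the same seed, and so do miR-379-3p and miR-411-3p. The 3p products of Mir379 and Mir411, both 22 bases long, differ by U10C and U22C, counted from the 5′ end with the Mir379 base first. Their 5p products, of 21 bases, differ at 7 positions, of which G2A lies in the seed. Among the 69 sequences, 6 seeds were shared by members, in pairs that took in 11 of the 38 genes. This is a minimum, since for Mir376c, Mir453, Mir485, Mir487b and Mir539 only 1 sequence was compared. The other pairs were miR-376b-5p with miR-376c-5p, miR-494-5p with miR-410-5p, miR-453 with miR-496a-5p, and miR-1197-5p with miR-758-5p.

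The next set shows members that differed most between the libraries or lie beside them as close relatives, again with seeds in capitals.
miR-380-5p: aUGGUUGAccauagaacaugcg
miR-380-3p: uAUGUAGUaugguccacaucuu
miR-376a-3p: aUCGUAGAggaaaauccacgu
miR-376b-3p: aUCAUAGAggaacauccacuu
miR-376b-5p: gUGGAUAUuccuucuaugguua
miR-376c-5p: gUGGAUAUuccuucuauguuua
miR-300-3p: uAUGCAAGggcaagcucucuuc
miR-381-3p: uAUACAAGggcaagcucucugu
miR-543-3p: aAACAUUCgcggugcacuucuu
miR-495-3p: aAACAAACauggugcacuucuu
miR-376c-5p and miR-376b-5p differ by U19G alone, outside the seed. miR-300-3p and miR-381-3p differ at 3 of 22 positions, and G4A falls in the seed. miR-543-3p and miR-495-3p differ at 4 of 22, with U6A and U7A in the seed. miR-376a-3p and miR-376b-3p differ at 3 of 21, with G4A in the seed.

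Near-identical stretches matter because the tables list reads that map to several places in a line of their own, apart from the genes. Runs of 20 or more bases in common with another annotated hairpin were found in 5 of the 38: Mir376b, Mir376c, Mir487b, Mir411 and Mir758, in each case with a member of the same cluster. Capitals mark the longest run common to each pair below, 31 bases for Mir376c and Mir376b and 21 bases for Mir411 and Mir758.
Mir376c: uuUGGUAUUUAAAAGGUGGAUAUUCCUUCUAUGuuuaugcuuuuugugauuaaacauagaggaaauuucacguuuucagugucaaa
Mir376b: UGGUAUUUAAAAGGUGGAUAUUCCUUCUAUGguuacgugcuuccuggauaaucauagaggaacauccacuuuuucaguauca
Mir411: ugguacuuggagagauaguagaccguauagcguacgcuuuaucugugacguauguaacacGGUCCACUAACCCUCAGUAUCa
Mir758: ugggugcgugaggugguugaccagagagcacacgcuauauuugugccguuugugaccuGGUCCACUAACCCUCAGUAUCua
Among all hairpins such a run is shared by 1087 of 2202, and by 85 of the 352 detected ones. How many reads the 5 members lost in this way was not tested.

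The cluster was broadly expressed in both libraries. Of the 38 members, 32 were detected, meaning at least 10 counts in each library, where 16.0% of all miRNA genes were. This background was not matched for shared runs of 20 bases, which 5 of the 38 members and 1087 of all 2202 hairpins have. Together the members held 103912 counts in replicate 1 and 103288 in replicate 2, or 2.90% (exact interval 2.88 to 2.91) and 2.27% (2.26 to 2.29) of the assigned counts, a mean of 2.59% ± 0.439 (SD, n = 2). With Mir122 left out of the totals the shares were 2.90% and 2.83%, a mean of 2.87% ± 0.0453. The difference between the libraries in the cluster's share was thus much smaller on the second total than on the first.

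The 19 other plus-strand hairpins of the domain, upstream from Mir770 to Mir882, held 2.10% and 1.92% of the counts, and 2.11% and 2.40% without Mir122. Of them 16 were detected, the same proportion as in the distal cluster (84.2%), and Mir127, which lies antisense to Rtl1, made up 1.39% and 1.30% alone. Mir127 had 2.26 times the counts of Mir411, the highest distal member, in replicate 1 and 2.07 times in replicate 2. Detected distal members had a median level of 185 CPM and detected upstream hairpins 215 CPM, where all 352 detected genes had 111 CPM. The distal levels were less spread, with an SD of 2.20 on the log2(mean CPM + 1) scale against 3.11 upstream and 3.50 over all detected genes. This is a description of the lists, with no test.

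Mir411, Mir541 and Mir379 supplied most of the cluster's reads. Mir411 (ENSMUSG00000065477.3, 109710175 to 109710256) had 6156 CPM in replicate 1 and 6285 in replicate 2, a mean of 6220 ± 90.8 (SD, n = 2) and rank 29 of all miRNA genes. Mir541 (ENSMUSG00000076052.1, 109742409 to 109742498), studied in neurite growth of PC12 cells, a line from a rat adrenal medulla tumour, had 5410 and 3679 CPM, a mean of 4544 ± 1224. Mir379 (ENSMUSG00000065498.4, 109709060 to 109709125), the first hairpin of the cluster and one that glucocorticoids raise in liver, had 5514 and 3196 CPM, a mean of 4355 ± 1639. Mir541 and Mir379 changed order between the libraries and do not differ beyond their spread, while Mir411 was highest in both. These 3 held 59.0% and 57.9% of the cluster's counts.

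Mir382 (109733771 to 109733846), in an exon of the noncoding gene Mirg, followed with 2713 and 2408 CPM. Mir487b had 1865 and 868 CPM. The 5 leading members together held 74.8% and 72.3% of the cluster's counts, and the 10 leading ones 88.9% and 86.6%. Ranks 6 to 10 went to Mir409, Mir376a, Mir134, Mir154 and Mir376c, and the 20 lowest detected members shared 8.57% and 9.81%. The mean levels of the highest and the lowest detected member, Mir411 and Mir412, lay 569.8-fold apart.

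**Figure D1:**
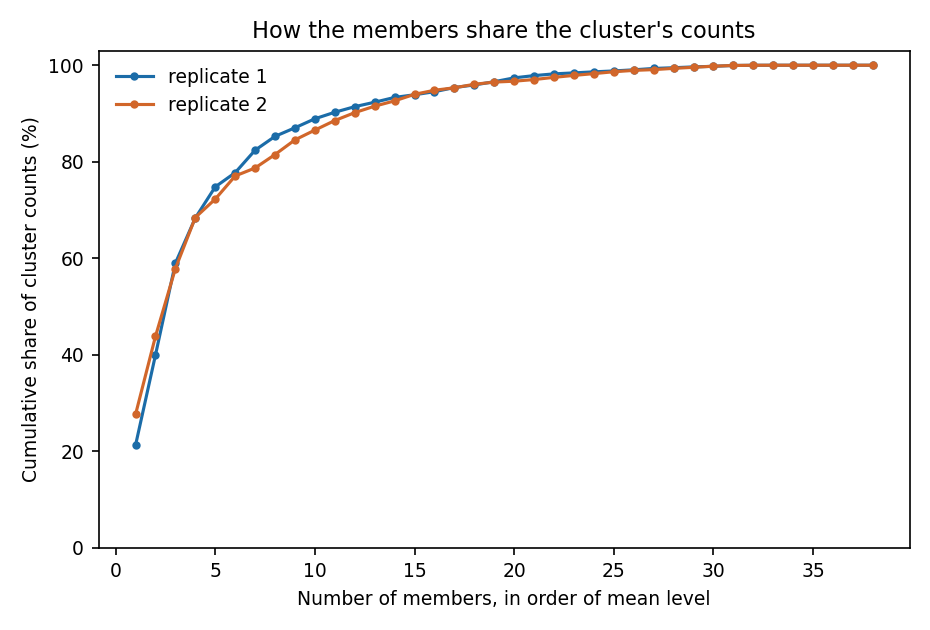
Cumulative share of the cluster's counts (vertical axis, %) as members are added in order of mean level (horizontal axis), for replicates 1 and 2. The first 5 members reach 74.8% and 72.3%, and the first 10 reach 88.9% and 86.6%.

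Members known from neurons lay across the range of levels. Mir134 (109734139 to 109734209), which limits dendritic spine size through Limk1, had 831 CPM in replicate 1 and 634 in replicate 2, a mean of 732 ± 139 (SD, n = 2). Mir485, which acts on the synaptic vesicle gene Sv2a, had 268 and 304 CPM, and Mir329, which acts with Mir134 in activity-dependent dendrite growth, had 183 and 191. Mir381, also tied to dendrites, had 160 and 310 CPM. Mir369, Mir496a and Mir543, which target N-cadherin in the developing cortex of the brain, stood far apart, with 334 and 372 CPM for Mir369, 50.7 and 50.0 for Mir496a, and 63.0 and 84.1 for Mir543. For Mir485, Mir329, Mir369 and Mir496a the libraries lay within 1.14-fold of each other, and with Mir122 out of the totals replicate 2 was at 1.41, 1.30, 1.39 and 1.23 times replicate 1.

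Members of the Mir376 group, whose products are known substrates of adenosine-to-inosine editing, differed in level and in reproducibility. Mir376a (109723781 to 109723848) had 1348 CPM in replicate 1 and 377 in replicate 2. Mir376c had 541 and 460, and Mir376b, which acts on the autophagy genes Atg4c and Becn1, had 135 and 78.2. Mir376a was therefore above Mir376c in replicate 1, at 2.49 times its counts, and below it in replicate 2, at 0.819 times. Mir376b was lowest of the 3 in both. Editing cannot be read from counts, and 2 of the 3 hairpins share the 31-base run printed above.

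Among members studied in other tissues, Mir154, known from fibrosis, had 514 and 691 CPM, and Mir409 had 854 and 1089. Mir494 had 250 and 117 CPM. Mir377, known from fibronectin regulation in diabetic kidney, had 34.3 and 52.8, and Mir410, the last hairpin and one linked to insulin secretion in beta-cell lines, had 49.9 and 33.7, so their order reversed between the libraries. The detected members whose levels are not given above, Mir299a, Mir323, Mir380, Mir495, Mir539, Mir666, Mir667, Mir668, Mir679, Mir300, Mir1193 and Mir412, had means from 10.9 CPM for Mir412 to 421 CPM for Mir299a. In all, 5 members had a mean of at least 1000 CPM and 22 of at least 100.

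The 6 members not detected were Mir1197, Mir758, Mir654, Gm27379, Mir544 and Mir453. Mir758 came closest, with 11 and 6 counts, which is 3.07 and 1.32 CPM. Mir1197 had 1 count in each library and Mir544 had 1 and 0. Mir654, Gm27379 and Mir453 had 0 in both, which allows up to 0.836 and 0.661 CPM. Mir1197 and Mir758, both undetected, lie on either side of Mir323, which had 58.8 and 91.4 CPM, and Mir453 lies between Mir485 and Mir154.

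**Figure D2:**
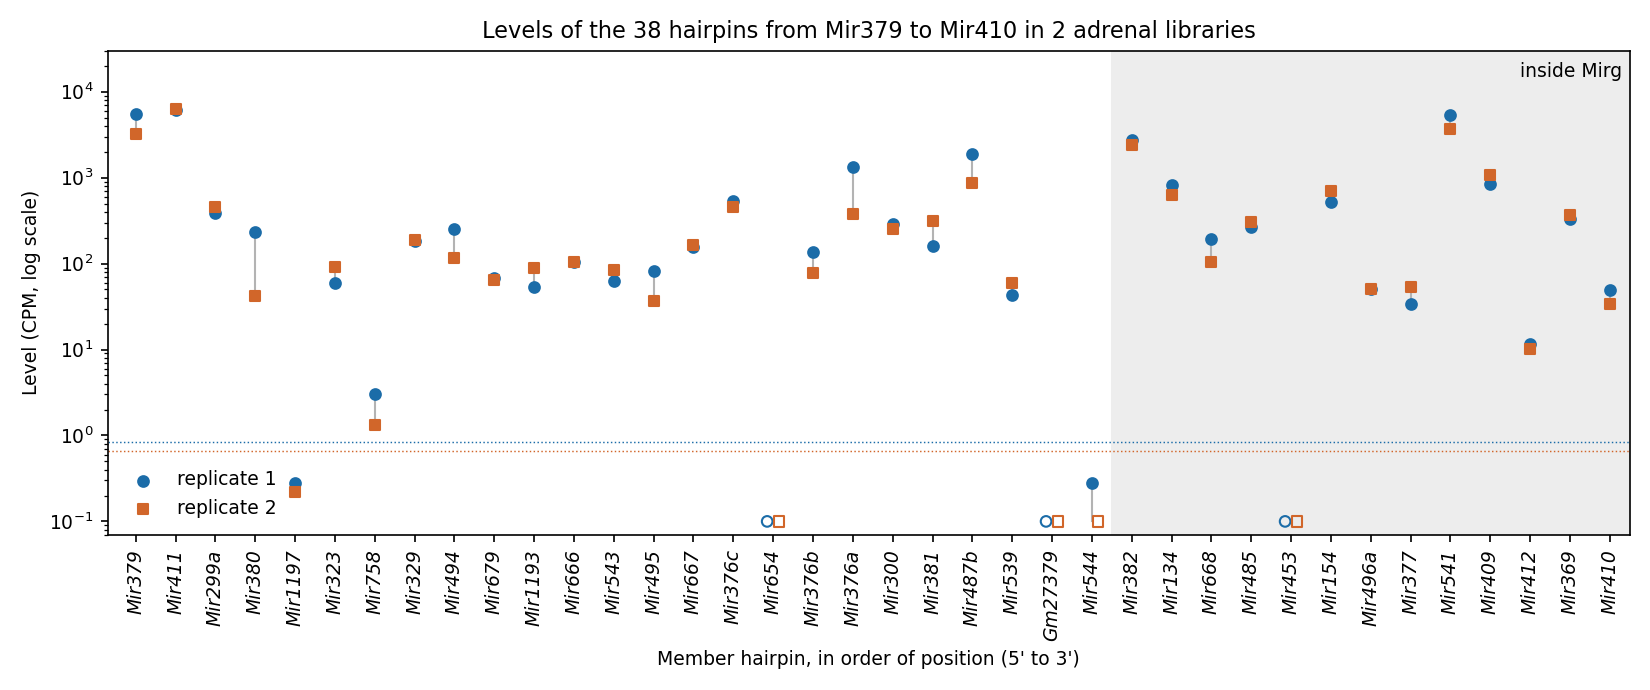
Level (CPM, log scale) of each of the 38 hairpins in order of position, with circles for replicate 1 and squares for replicate 2 joined by a grey line. Open symbols at the bottom are counts of 0, dotted lines the limits of 0.836 and 0.661 CPM, and grey shading the members inside Mirg. High members lie near both ends and between them, at Mir487b and Mir382. The 7 from Mir494 to Mir667 have means from 59.4 to 184 CPM.

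The levels showed little ordering by position along the cluster. Across the 32 detected members the Spearman correlation between distance from Mir379 and mean CPM was -0.11, and Pearson's r with log2(mean CPM + 1) was -0.07. These points come from the same 2 libraries. The Spearman correlation with mean CPM was -0.06 for the GC content of the hairpin and -0.03 for its length. High levels occurred near both ends, with Mir379 and Mir411 first and second in position and Mir541 near the last. They also occurred between the ends, at Mir487b and Mir382. Low levels lay near the last position too, with means of 10.9 CPM for Mir412 and 41.8 CPM for Mir410.

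Adjacent detected members differed by 2.17 on average on the log2(mean CPM + 1) scale over 31 pairs, and all 496 pairs of detected members by 2.51. Outside the domain, 67 pairs of detected hairpins under 10 kb apart on the same strand differed by 2.67, and 14 such pairs upstream in the domain by 3.00. The largest step was from Mir377 to Mir541, whose mean levels were 104-fold apart, with 158 times the counts in replicate 1 and 69.6 times in replicate 2. Gaps of 52 and 49 bases separate Mir409, Mir412 and Mir369 in turn, yet Mir409 had 72.9 and 107 times the counts of Mir412, while Mir369 had 28.5 and 36.8 times. Without replicate 2 the mean difference of neighbours was 2.48, and when hairpins with at least 1 count were kept it was 2.67, so this value moves with the low members.

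GENCODE M21 places the last 13 members, from Mir382 on, inside Mirg (109729764 to 109749460) and the first 25 outside any same-strand gene. Mirg is the noncoding transcript known as a host of these hairpins. Of the 13, 8 overlap an exon, all 8 detected, with a median of 217 CPM and a range from 10.9 (Mir412) to 2560 (Mir382). The 5 intronic members, of which Mir453 was not detected, had a median of 787 CPM over the other 4. The 20 detected members upstream of Mirg had a median of 172 CPM and held 61.1% and 58.6% of the cluster's counts. The 3 ranges overlap widely.

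As a list, the members differed from other hairpins in ways the positional rule did not use. Their median GC content was 43.5%, with a wide range from 29.1% to 64.6%. The median was 55.7% for the 19 upstream hairpins and 50.8% for all 2202. Short runs chosen after viewing the sequences recurred among the members. The run GGUUNNCC occurred in 13 of 38 members (34.2%) and in 0 of 19 upstream hairpins. It was in 27 of the 2164 hairpins that are not members (1.25%), and in 1.82% of all hairpins. Its special case GGUUGACC was in 5 members and 0 of the 2164 others (0.227% of all hairpins), and UGGUCCAC was in 4 members and 0 others (0.182% of all hairpins). The run UACUUG was in 10 members and in 41 others (2.32% of all hairpins). These are matches on the sense strand; on the opposite strand GGUUNNCC matched in 3 members and 30 others, GGUUGACC in 0 and 1, UGGUCCAC in 0 and 7, and UACUUG in 0 and 20. The others include the opposite-strand hairpins annotated at 5 members, which overlap the sequence of those members. Member hairpins were 61 to 123 bases long, and lengths were not matched in these shares.

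The mature products that hold GGUUGACC or UGGUCCAC show that the recurring run sits at different distances from the 5′ end, so that it does not always fall in the seed. Capitals mark the run.
miR-380-5p: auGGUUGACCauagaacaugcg
miR-1197-5p: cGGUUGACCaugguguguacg
miR-758-5p: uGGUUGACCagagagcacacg
miR-134-5p: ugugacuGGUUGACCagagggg
miR-154-3p: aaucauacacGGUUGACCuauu
miR-379-3p: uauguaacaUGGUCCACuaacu
miR-380-3p: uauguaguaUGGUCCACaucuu
miR-758-3p: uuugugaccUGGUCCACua
miR-412-3p: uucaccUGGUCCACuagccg
The run GGUUGACC starts at base 2 in miR-1197-5p and miR-758-5p, at base 3 in miR-380-5p, at base 8 in miR-134-5p and at base 11 in miR-154-3p. Mir1197 and Mir758, whose shared seed is its first 7 bases, were both undetected, and Mir134 and Mir154 were among the 10 highest members. Mir380 and Mir758 hold both runs, in opposite arms.

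Reads followed the sense strand. Antisense counts over all 38 members came to 1 in replicate 1 and 2 in replicate 2, all at Mir299a. Opposite-strand hairpins are annotated at 5 members, Mir299a, Mir380, Mir376a, Mir539 and Mir409, which held 9.90% and 8.87% of the cluster's sense counts. Their partners Mir299b, Gm25750, Gm25252, Gm44322 and Gm24321 had 1 and 2 sense counts in all. In the column that ignores strand these 5 members had 0 and 2 counts, so the sense column is the one that shows them.

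Between the libraries most members kept their place, while 5 were over 2-fold lower in replicate 2. On the log2(CPM + 1) scale the detected members had a Pearson correlation of 0.945 between libraries and a Spearman correlation of 0.919, over 32 hairpins that share both libraries, and 24 of them stayed within 3 ranks. Of the 32, 0 were over 2-fold higher in replicate 2, where 9.38% of all detected genes were, and 5 were over 2-fold higher in replicate 1, where 7.39% were. With Mir122 out of the totals 2 members, Mir381 and Mir1193, were over 2-fold higher in replicate 2 (background 15.9%), and 2, Mir380 and Mir376a, in replicate 1 (background 3.69%). These compare libraries of 1 group, not conditions, and have no further replicate check.

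Mir380 had the largest difference. Its 832 and 191 counts came to 232 and 42.1 CPM, and it stood 5.51-fold higher in replicate 1 (exact interval 4.71 to 6.49). Mir376a was 3.57-fold higher (3.38 to 3.78). Mir495, studied as a regulator of Bdnf, had 82.2 and 36.6 CPM, 2.25-fold higher (1.85 to 2.74). Mir487b was 2.15-fold higher (2.06 to 2.23) and Mir494 2.14-fold (1.92 to 2.38). With Mir122 out of the totals the ratios of replicate 2 to replicate 1 were 0.226 for Mir380 and 0.348 for Mir376a, and 0.554, 0.580 and 0.583 for Mir495, Mir487b and Mir494, within 2-fold.

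In the other direction the highest ratios of replicate 2 to replicate 1 were those of Mir381, Mir1193, Mir323, Mir377 and Mir539. Mir381 was at 1.94 (1.76 to 2.14), Mir1193, with 53.8 and 88.3 CPM, at 1.64 (1.38 to 1.96) and Mir323 at 1.55 (1.31 to 1.84). Mir377 was at 1.54 (1.24 to 1.93) and Mir539, with 42.6 and 58.8 CPM, at 1.38 (1.13 to 1.69). Mir411, the highest member, was at 1.02 (1.00 to 1.04). The exact interval included equality for 6 of the 32 members.

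**Figure D3:**
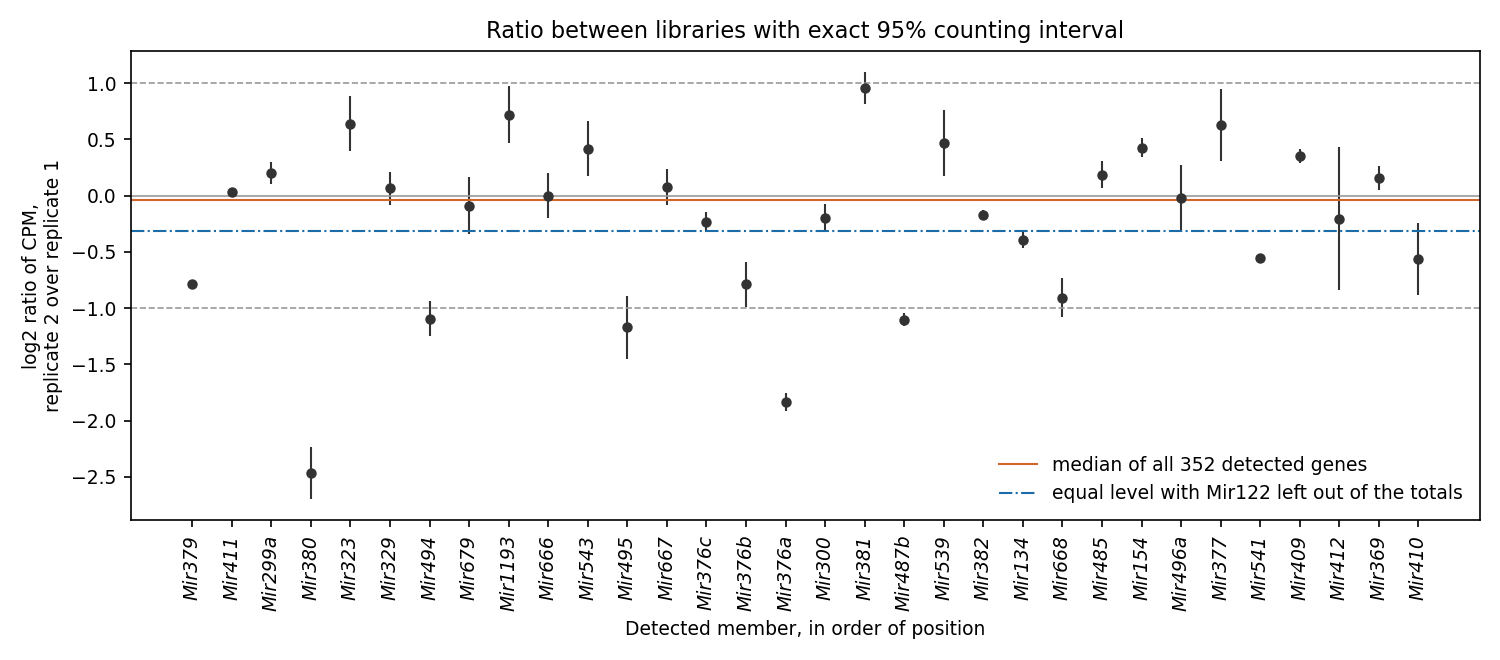
Log2 ratio of CPM, replicate 2 over replicate 1, for the 32 detected members in order of position, with exact 95% counting intervals. Dashed lines mark 2-fold, the orange line the median of all 352 detected genes and the blue line the ratio that means equal levels with Mir122 left out of the totals; Mir380 and Mir376a lie lowest, and Mir381 highest.

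On either total the members' median ratio lay near that of all detected genes. The median log2 ratio, replicate 2 over replicate 1 with 1 CPM added, was -0.05 for the detected members, -0.06 for the 16 upstream hairpins and -0.04 for all 352 detected genes. It was 0.26, 0.25 and 0.27 with Mir122 out of the totals. The SD of the log2 ratio was 0.75 among the distal members, 0.41 among the upstream hairpins, of which 0 were over 2-fold either way, and 0.95 over all detected genes. Without Mir380 and Mir376a, a choice made after their values were seen, the distal SD was 0.57. No test was made of these differences in spread.

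**Figure D4:**
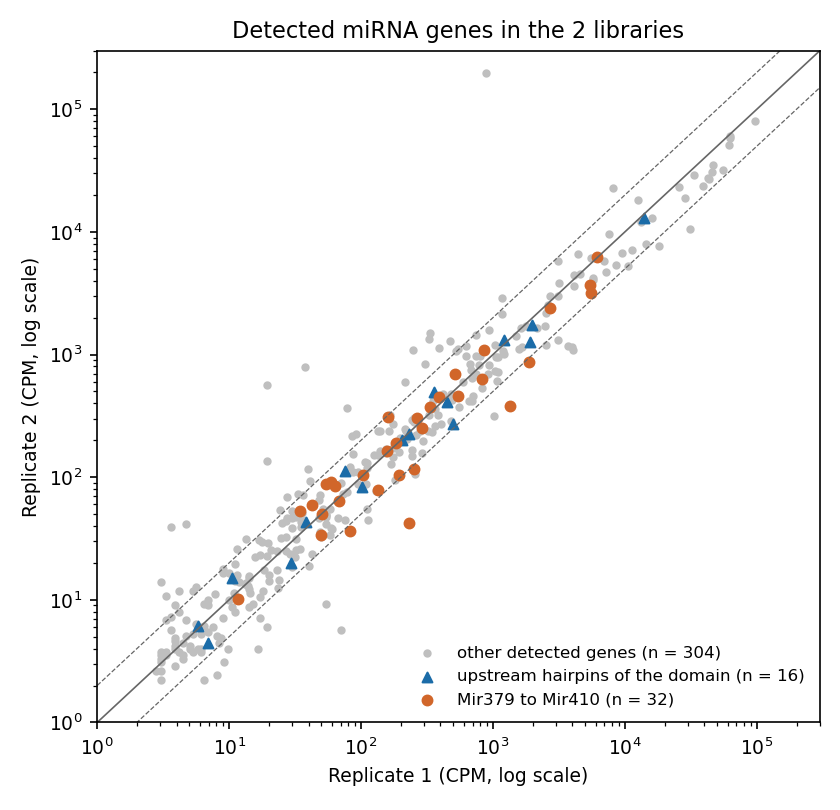
Level in replicate 1 (horizontal) and replicate 2 (vertical), both in CPM on log scales, for all 352 detected genes, with distal members as orange circles and upstream hairpins of the domain as blue triangles; dashed lines mark 2-fold. The 5 distal members below the lower line are Mir380, Mir376a, Mir495, Mir487b and Mir494, and Mir122 is the grey point at the top.

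Adjacent members were no closer in these ratios than other pairs. Log2 ratios of adjacent detected members differed by 0.96 on average, against 0.82 over all pairs. Mir379 had 23.8 times the counts of Mir380 in replicate 1 and 76.0 times in replicate 2, and Mir411 had 1.12 and 1.97 times those of Mir379. Mir381, separated from Mir487b by 436 bases, had 0.0856 times its counts in replicate 1 and 0.356 times in replicate 2. Some close relatives changed order between the libraries and others kept it. Mir495 had 1.31 times the counts of Mir543 in replicate 1 and 0.435 times in replicate 2, and Mir381 had 0.556 and 1.24 times those of Mir300. Mir376a and Mir376c also changed order, while Mir376b stayed below both of them and Mir411 stayed above Mir379. Ratios of this kind do not depend on the library total.

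GC content and the ratio were weakly related. The 5 members over 2-fold lower in replicate 2 had a median GC content of 35.3%, and the other detected members 43.3%. The groups overlapped: Mir380 had 42.6% and Mir487b 47.6%, and the lowest of the other detected members had 29.1%. The Spearman correlation between GC content and log2 ratio was 0.19 over the 32 members and 0.27 over all 352 detected genes. The 5 members were picked by the ratio itself, and the part of GC content in the ratios was not tested.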

How the data were processed

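Counts per miRNA gene were deposited by the authors as raw values from alignments to mm10 with annotation M21, per the text files with the tables. Aligner, trimming and settings were not given in the sources used here. The files have no header; column 3 was read as sense-strand counts from the values of its summary lines, and these 4 lines, which name no gene, stayed out of totals. They put 31.6% and 27.0% of input reads as mapped to several places, and these were not counted per gene.

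GENCODE M21 supplied the members' positions and their host gene, and runs of 20 shared bases were sought in its transcripts. Ratios carry exact (Clopper-Pearson) 95% intervals, and the 2-fold rule used CPM plus 1. Detection needed 10 counts in both libraries. The interval and the rule were tested on simulated counts with counting error alone. That test cannot show how they behave under other differences between libraries. Members named were the 10 highest, the 5 at each end of the ratios, those undetected, those sharing a seed or 20 bases, and the first and last. Others were named after their values were seen. Members and lists were chosen with earlier results of these data known. Alternative totals also left out Mir122 or took all input reads; other alternatives changed the count minimum, pseudocount, strand column, library and shared hairpins. They used edgeR 4.0.16 (TMM) and DESeq2 1.42.0 (size factors). Intervals came from scipy 1.17.1 under Python 3.11.15, and plots from matplotlib 3.10.9.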

Additional observations from a re-analysis of the deposited data

How the results depend on the processing

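The cluster's share of 2.59% was 1.10% of all input reads and 1.77% without the members that share 20 bases, which include Mir411. Members over 2-fold higher in replicate 2 numbered 0, but 2 with Mir122 out of the totals and 1 with all input reads as the total. Those over 2-fold higher in replicate 1 numbered 5, but 2 with Mir122 out of the totals and 3 from either-strand counts, which lose the 5 members with an opposite-strand hairpin. The median log2 ratio of the members, -0.05, became 0.26 with Mir122 out of the totals, as the median of all detected genes became 0.27. The share of the 5 leading members, 73.5%, was 81.2% from either-strand counts. The neighbour difference of 2.17 was 2.67 with hairpins of at least 1 count and 2.39 with at least 5. Leaving out each library gave 2.20 to 2.48. The median level of detected members, 185 CPM, was 204 CPM with Mir122 out of the totals and 219 CPM from either-strand counts. TMM and DESeq2 totals, pseudocounts of 0.1 and 10, and a minimum of 20 counts left each of these results they were applied to within the spread between libraries, or a count within 1.5 times. Leaving out Mir380 and Mir376a, added after the data were seen, took the SD of the members' log2 ratios from 0.75 to 0.57. Precision is limited by 2 libraries, and Mir412, at 42 and 46 counts, has the widest interval of the detected members.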
